A study of Ovis aries with 56 samples.

Results

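Ewes were compared with rams within the left amygdala of sheep that had been treated with a GnRH agonist. GnRH is the gonadotropin-releasing hormone. The arrays of these animals were chosen by their labels (GnRHa, left, ewe or ram) and by their spike-in RNAs, which had to follow those of the other arrays with a slope of at least 0.5 in size. By this rule 11 of the 14 labelled arrays were used, 5 of ewes and 6 of rams, out of 56 arrays in the series. Genes were described where the array names them and the sheep reference places them on an autosome, and 685 of 759 such genes had enough values to be tested.

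All animals were Scottish Mule and Texel crosses sampled at 50 weeks of age. Both groups carried subcutaneous goserelin implants of 3.6 mg, renewed at intervals of 4 weeks. Treatment of ewes began at 28 weeks of age and treatment of rams at 8 weeks, so sex and length of treatment cannot be told apart in any value below. Each treated animal had a twin of its own sex that received no implant, and these twins are the untreated animals. Comparisons with the untreated left amygdala used 5 ewe and 5 ram arrays, and those with the right amygdala of treated animals used 5 and 6. The study asked how treatment around puberty bears on gene expression that differs between the sexes in this brain region.

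The amygdala is a forebrain region that handles emotional, social and sexual signals and is rich in receptors for sex steroids. Goserelin first stimulates and then, under continued exposure, desensitises the GnRH receptor of the pituitary, which lowers gonadotropin release and gonadal steroid production. Expression of GnRH receptors outside the pituitary, in the brain among other places, has been described in several mammals.

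Every value was read as a log2 ratio of the RNA of 1 animal to a common pool of amygdala RNA. So read, 0 means the level of the pool and a difference of 1 means a factor of 2. The sources used here do not give this direction. The spike-in rule only aligned the arrays with each other, so every higher or lower in ewes rests on this reading. Group values are given as mean ± SD of arrays. Differences are ewes minus rams as limma fitted them, ± standard error, with p-values adjusted by Benjamini and Hochberg over all 12930 probes tested. A probe was called at an adjusted p below 0.05, and each gene is represented by its brightest probe. Each array comes from a different animal, and the number of arrays limits the precision of every value. Since the tissue was taken whole, fewer cells of a type and less RNA per cell cannot be told apart.

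2 properties of these arrays bear on the results. First, all 5 ewe arrays carried the animal's RNA in Cy3, while rams had both dyes. The labels give Cy5 for ram replicates 1, 2 and 6 and Cy3 for 3, 5 and 7. In ram replicate 6 the spike-in ratios ran backwards, so its values were turned and its dye was inferred to be Cy3, against its label. Its correlation with the mean Cy5 minus Cy3 profile of the other 40 arrays, over 9370 probes, was -0.20. Arrays taken as Cy3 ranged from -0.33 to 0.019 and those taken as Cy5 from -0.10 to 0.22. Turning an array reverses the sign of this correlation. Unturned, ram replicate 6 would lie in the Cy5 range of its label, so the correlation does not test the turn. Values of the 5 ewe against the 4 ram arrays taken as Cy3 are given beside the main ones for the genes that the results turn on. Below, Cy3 and Cy5 arrays are those taken as such. Second, dim probes took stepped values: on these 11 arrays 61.7 to 71.3% of the values equalled that of another probe of the same array when compared to 7 decimals, and 25.5 to 34.0% were shared by 20 or more probes. Probes that never held such a widely shared value on the 41 arrays of the fit had a median log2 brightness of 6.74, against 5.39 for probes that held one on at least 0.5 of them. Among the genes named below by their brightest probe, over 0.5 of the values on the 11 arrays were widely shared for TGFBR1, SCNN1A, TGFB3, PAG6, GNRHR, ISL1, BAK1, IKBKB, IRF1, TNFSF13B, ACVR1B, ESR2, ITGA5, COL3A1, COL6A1, AHSP, EPOR, AQP1, MYOG, TNNC2, PER1, MTHFD2, PGR, CYP19, LHCGR, GNRH1, ITGAM, CD4, KCNK3 and EPAS1. A smaller share was for FSHR, CD3D, CD5, SLC1A1, GRM3, TLR3 and PLIN1. The other genes named had no such value on these arrays.

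Of the 12930 probes 283 were called (2.19%), with 110 higher and 173 lower in ewes (0.851% and 1.34%). When the arrays were scaled to a common spread the split was 226 higher and 208 lower. Without an adjustment 22.8% of the probes had a p below 0.05. Most calls, 267, were probes with no gene name, as were 13624 of the 15008 probes on the array. No X-linked probe was called, but the array holds only 46 probes named as X-linked. Of the 685 named autosomal genes 10 were called (1.46%), and 20% had an unadjusted p below 0.05. These calls rest on the whole set of arrays and on the turned one. None of the 10 genes stayed called without the 3 turned arrays of the series, with the arrays of these 2 groups alone, with all 56 columns or among Cy3 arrays alone, and 1 stayed called with the dyes as labelled. TGFBR1 was higher in ewes. NRP1, CRY1, HSD11B1, RPL6, SCNN1A, TGFB3, PAG6, GNRHR and ISL1 were lower. Over all 685 genes 357 differences were positive (52.1%) and their median was 0.038. All ewes lay above all rams for 15 of them (2.19%) and below all rams for 20 (2.92%).

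The 10 called genes fell into 2 kinds. For NRP1, CRY1, HSD11B1 and RPL6 none of the 41 arrays held a widely shared value. For TGFBR1, SCNN1A, TGFB3, PAG6, GNRHR and ISL1 most values on the 11 arrays were widely shared. Such genes could hold the very same value on an array, as SCNN1A and PAG6 did in ewe replicate 3 (-1.80) and ram replicate 6 (1.54) and GNRHR and ISL1 did in ewe replicate 3 (-1.28). The groups did not overlap for 6 of the 10 genes. Over all 685 named genes all ewes lay above all rams for 2.19% and below for 2.92%. The same arrays chose the 10 genes, so this count is no separate support. It includes ISL1, GNRHR and PAG6, which had only 4, 6 and 8 values. The direction was the same among the 5 ewe and 4 ram Cy3 arrays alone for 10 of 10 genes. These arrays are part of the 11 that chose the genes, so this is no separate check on the dye. No gene stayed called in each of the fits that left out 1 of the 11 arrays, and with ewe replicate 6 left out 0 of the 685 named genes were called.

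**Figure D1:**
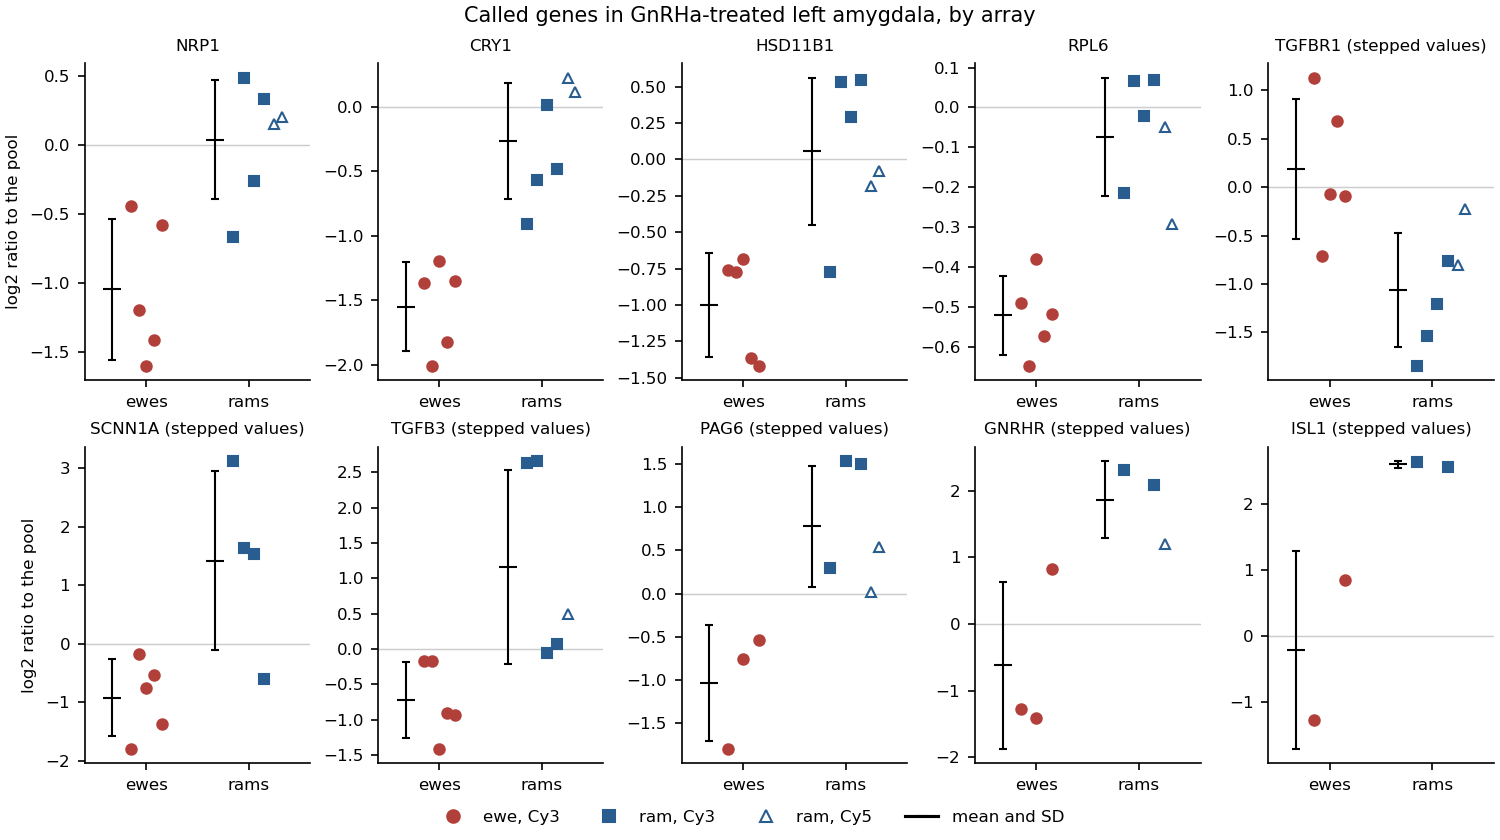
Log2 ratio to the pool (vertical axis) of the 10 called genes, 1 panel a gene, with a point for each array that measured it. Circles are ewes, squares are rams taken as Cy3 and open triangles are rams taken as Cy5. Ram replicate 6, labelled Cy5, is drawn as a square. The black marks at the left of each group are mean and SD. The ewes of CRY1 and RPL6 lie below all rams, while ISL1 has 2 points in each sex.

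CRY1, a core repressor of the circadian clock, was lower in ewes on a probe without stepped values. In ewe replicates 3 to 7, in that order here and below, it stood at -1.37, -2.01, -1.19, -1.82 and -1.35. In the 6 rams it ranged from -0.91 to 0.23 with a median of -0.23. All ewes lay below all rams, as they did for 3.02% of all probes tested. The fitted difference was -1.12 ± 0.26 (adjusted p = 0.0319), a level lower by a factor of 2.18 in ewes. Among Cy3 arrays the difference was -1.07, and both Cy5 rams held the highest ram values. CRY1 was called in 6 of 11 fits that left out 1 array. A dimmer CRY1 probe, at a brightness of 5.15, had a difference of 0.24 ± 0.69 (adjusted p = 0.864), so the probes disagree.

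Other clock genes were not called. PER1, a repressor induced by light and by glucocorticoids, was measured in 3 ewes at -0.41, -0.79 and -0.54 and in 5 rams from 0.069 to 1.51 with a median of 1.10. The groups did not overlap, and the difference was -1.69 ± 0.61 (adjusted p = 0.111) with 7 of 8 values widely shared. BMAL1, an activator of the clock, had a difference of -0.37 ± 0.15 (adjusted p = 0.148) and PER2 one of -0.055 ± 0.21 (adjusted p = 0.897). 5 of 6 clock genes had negative differences, with a median of -0.56, against 0.038 over all named genes.

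NRP1, a co-receptor for semaphorins and vascular endothelial growth factor on neurons and vessels, had the lowest p of the named genes. Ewes stood at -0.44, -1.20, -1.60, -1.42 and -0.58 and rams ranged from -0.67 to 0.49 with a median of 0.18. Ewe replicates 3 and 7 were the highest ewes, and ram replicate 3, the lowest ram, lay below them, so the groups overlapped. The difference was -1.08 ± 0.25 (adjusted p = 0.0319), or -1.02 among Cy3 arrays, and NRP1 was called in 7 of 11 fits without 1 array. Of 22 endothelial and vascular genes tested, NRP1 was called lower and none higher, and 17 of 22 differences were negative, with a median of -0.22. Over all named genes 1.46% were called and 52.1% of the differences were positive. The median of this list was -0.35 in the untreated left and 0.13 in the treated right amygdala. ITGA5, a fibronectin receptor subunit, followed at -1.99 ± 0.60 (adjusted p = 0.0683), with 10 of 10 values widely shared and overlapping groups. SLC2A1, the glucose transporter of brain capillaries, had a difference of 0.54 ± 0.20 (adjusted p = 0.117) in the opposite direction.

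HSD11B1, the enzyme that regenerates active cortisol within cells, stood at -0.76, -0.78, -0.69, -1.36 and -1.42 in ewes and from -0.77 to 0.54 with a median of 0.10 in rams. Only ram replicate 3 fell among the ewes. The difference was -1.12 ± 0.28 (adjusted p = 0.0323), or -1.15 among Cy3 arrays, and 4 of 11 fits without 1 array called it. A dimmer HSD11B1 probe had a difference of 0.37 ± 0.50 (adjusted p = 0.695), in the other direction.

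The list of sex steroid receptors and steroid enzymes had 10 tested genes. Among them are also NR3C1, the glucocorticoid receptor, and STAR, a cholesterol transport protein. HSD11B1 was called lower and none higher. Over all named genes 1.46% were called and 52.1% of the differences were positive. In the list 6 of 10 differences were negative, and the median was -0.40. It was -0.55 in the untreated left and -0.16 in the treated right amygdala. ESR2, the oestrogen receptor beta, stood at -1.07, -0.038, -3.66, -1.01 and -1.98 in ewes and from 0.33 to 1.85 with a median of 0.76 in rams. All ewes lay below all rams, with ewe replicate 4 close to them and replicate 5 far below, and 8 of 11 values were widely shared. The difference of -2.31 ± 0.63 (adjusted p = 0.0505) did not pass. PGR, the progesterone receptor, which oestrogen induces in many brain regions, had a difference of -1.76 ± 0.64 (adjusted p = 0.112), with overlapping groups. ESR1, the oestrogen receptor alpha, differed by 0.34 ± 0.87 (adjusted p = 0.848) with ewes from -2.19 to 0.89 and rams from -2.39 to 1.72, and here the values were not stepped. The aromatase gene, named CYP19 on the array, was measured in 4 ewes and 3 rams and had a difference of 0.24 ± 0.91 (adjusted p = 0.899). When 1 array was left out it ran from -0.084 (without ram replicate 1) to 1.86 (without ram replicate 7), and that of ESR1 from 0.024 (without ram replicate 6) to 0.94 (without ewe replicate 6). A slightly dimmer CYP19 probe had a difference of 1.32 ± 0.67 (adjusted p = 0.245).

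GNRHR, the receptor at which goserelin acts, had a large fitted difference on few, stepped values, which resolve no fold. It was measured in 3 ewes, replicates 3, 5 and 7, at -1.28, -1.41 and 0.83, and in 3 rams, replicates 1, 3 and 5, at 1.21, 2.31 and 2.08. All 3 ewes lay below the 3 rams. The difference was -3.33 ± 0.82 (adjusted p = 0.0462). All 6 values were shared by 115 to 158 probes of their arrays, 0 of 11 fits without 1 array called it, and a dimmer GNRHR probe had a difference of 0.78 ± 0.65 (adjusted p = 0.490). The other gonadotropin genes named here were not called. LHCGR, the luteinizing hormone receptor, had a difference of 1.17 ± 0.67 (adjusted p = 0.303), and FSHR, the follicle-stimulating hormone receptor, one of 0.63 ± 0.64 (adjusted p = 0.580). GNRH1, which encodes the hormone itself, had one of 0.40 ± 0.86 (adjusted p = 0.812). Among 23 genes of the GnRH, kisspeptin and gonadotropin axis tested, GNRHR was called lower and none higher, against 1.46% called of all named genes. Of the 23 differences 11 were positive and 12 negative, and the median was -0.017.

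2 genes of the transforming growth factor beta system were called, in opposite directions. TGFBR1, the type I receptor for TGF-beta, stood at 1.13, -0.71, -0.075, 0.68 and -0.10 in ewes and from -1.84 to -0.22 with a median of -1.01 in rams. The groups overlapped through ewe replicate 4, and 9 of 11 values were widely shared. Its difference was 1.5 ± 0.38 (adjusted p = 0.0377), higher in ewes by a factor of 2.82, and a dimmer TGFBR1 probe had a difference of 0.96 ± 0.46 (adjusted p = 0.205). TGFB3, a ligand of this receptor, stood at -0.17, -0.17, -1.41, -0.90 and -0.93 in ewes and from -0.048 to 2.66 with a median of 0.49 in the 5 rams that measured it. The lowest rams, replicates 6 and 7, lay just above the highest ewes, and 10 of 10 values were widely shared. The difference was -2.12 ± 0.56 (adjusted p = 0.0430).

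Among the other genes of this system INHBA, the gene of the beta A chain found in activin A and inhibin A, stood at -0.0095, -1.45, -0.76, -0.97 and -0.71 in ewes and from -0.43 to 0.59 with a median of -0.22 in rams, with a difference of -0.69 ± 0.32 (adjusted p = 0.199). Its values were not stepped. ACVR1B, an activin receptor, had a difference of -1.47 ± 0.52 (adjusted p = 0.102), and TGFB1, another ligand, one of 0.94 ± 0.32 (adjusted p = 0.0898). Of 22 genes tested in the list of activin, inhibin, TGF-beta and BMP genes 13 differences were positive and 9 negative, with a median of 0.076.

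SCNN1A, PAG6 and ISL1 were the remaining called genes with stepped values. SCNN1A, a subunit of the epithelial sodium channel, stood at -1.80, -0.17, -0.76, -0.53 and -1.37 in ewes and at 3.12, 1.63, 1.54 and -0.61 in ram replicates 3, 5, 6 and 7, all of them Cy3 arrays. Replicate 7 fell among the ewes. The difference was -2.34 ± 0.60 (adjusted p = 0.0391), and a dimmer SCNN1A probe differed by 2.70 ± 0.75 in the opposite direction (adjusted p = 0.0571). PAG6 is 1 of a large family of placental pregnancy-associated glycoproteins whose members have similar sequences, so its probe may read others of them, which was not tested. It stood at -1.80, -0.76 and -0.54 in 3 ewes and from 0.02 to 1.54 with a median of 0.54 in 5 rams, without overlap, with a difference of -2.27 ± 0.57 (adjusted p = 0.0435). ISL1, a transcription factor of motor, striatal and hypothalamic neurons, had 2 values in each sex, -1.28 and 0.85 in ewes and 2.63 and 2.56 in rams, and a difference of -2.83 ± 0.69 (adjusted p = 0.0482). Of the 11 fits without 1 array 7 could test ISL1 and 1 called it.

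**Figure D2:**
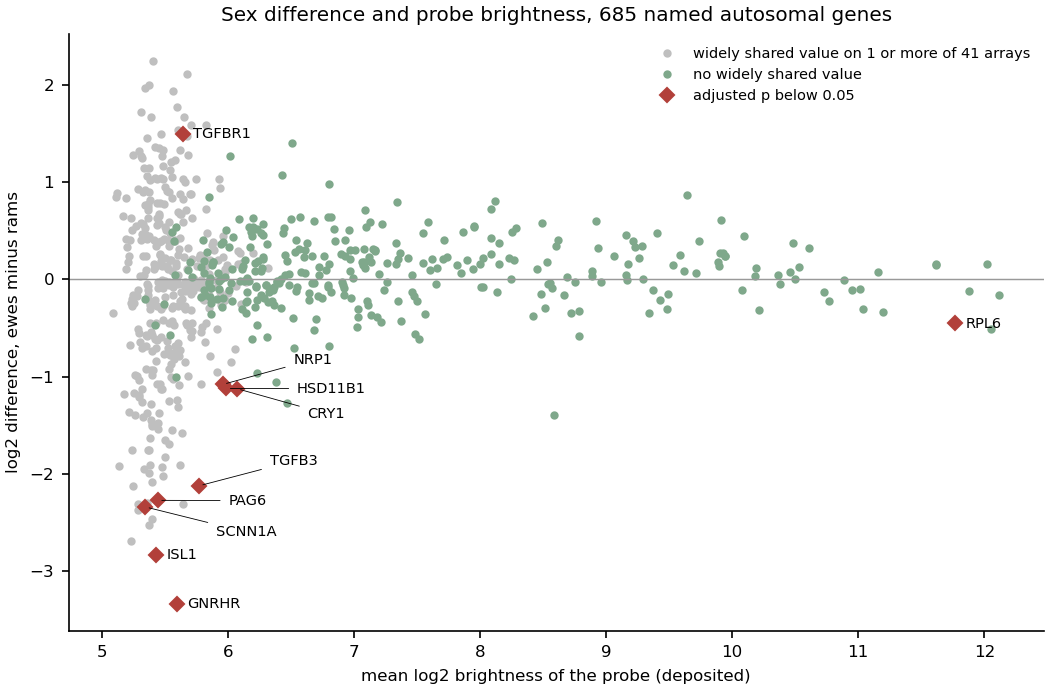
Log2 difference, ewes minus rams (vertical axis), against the mean log2 brightness of the probe as the authors deposited it (horizontal axis), for 685 named autosomal genes. Green points are probes with no widely shared value on any of 41 arrays, grey points are other probes, and diamonds are called genes. Differences spread widely below a brightness of 6, where 8 of the 10 called genes lie, and RPL6 is the called gene of highest brightness.

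RPL6, a protein of the large ribosomal subunit, differed little in size but with a small spread. Ewes stood at -0.49, -0.65, -0.38, -0.57 and -0.52 and rams ranged from -0.29 to 0.068 with a median of -0.035. All ewes lay below all rams. The difference was -0.45 ± 0.12 (adjusted p = 0.0381), or -0.50 among Cy3 arrays, a factor of 1.37, and 3 of 11 fits without 1 array called it. PPIA, a cyclophilin that helps proteins fold, stood at -0.63, -0.75, -0.59, -0.97 and -0.42 in ewes and from -0.37 to 0.12 with a median of -0.013 in rams, again without overlap. Its difference was -0.51 ± 0.14 (adjusted p = 0.0504). A second PPIA probe, also bright at 11.17, had a smaller difference of -0.20 ± 0.14 (adjusted p = 0.416). Both genes have many processed copies in mammalian genomes whose transcripts their probes may also read, which was not tested.

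Of 17 ribosomal protein genes tested RPL6 was called lower and none higher, against 1.46% called of all named genes. Positive differences were found in 11 of the 17, against 52.1% of all named genes, and the median was 0.15. Among the 6 lower ones was RPS27A, a ubiquitin fusion protein of the small subunit, at -0.31 ± 0.15 (adjusted p = 0.205), with a second probe at -0.28 ± 0.14 (adjusted p = 0.236). Among 7 translation factors 5 had positive differences, led by EIF4G1, a scaffold of cap-dependent initiation, at 0.53 ± 0.25 (adjusted p = 0.209), and EEF1A1, the factor that brings aminoacyl-tRNA to the ribosome, at 0.40 ± 0.21 (adjusted p = 0.248). DOHH, an enzyme that completes the hypusine residue of the translation factor eIF5A, stood at 0.53, 0.49, 0.37, 0.47 and 0.34 in ewes and from -0.12 to 0.30 with a median of -0.033 in rams. All ewes lay above all rams, as they did for 2.17% of all probes, and the difference was 0.37 ± 0.11 (adjusted p = 0.0589).

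No microglia gene passed the threshold. 3 genes of the immune or lysosomal system that the naming rule took for their low p stood higher in ewes. CTSS, a lysosomal cysteine protease of microglia and antigen-presenting cells, stood at -0.00051, 0.32, 0.31, 1.01 and 0.43 in ewes and from -0.70 to -0.068 with a median of -0.45 in rams. FCER1G, the Fc receptor gamma chain that microglia use for signalling, stood at 0.40, 0.73, 0.43, 0.83 and 0.57 and from -0.18 to 0.13 with a median of 0.016. CTSD, the main aspartic protease of lysosomes, stood at 0.32, 0.71, 0.14, 0.94 and 0.60 and from -0.56 to 0.13 with a median of -0.18. For each of these 3 genes, which this comparison chose, all ewes lay above all rams, as they did for 2.19% of all named genes. None of their values was widely shared. CTSD is not in the microglia list. The differences were 0.80 ± 0.24 (adjusted p = 0.0644), 0.59 ± 0.18 (adjusted p = 0.0663) and 0.80 ± 0.23 (adjusted p = 0.0563), and a second CTSD probe gave 0.77 ± 0.23 (adjusted p = 0.0606).

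TSPO, an outer mitochondrial membrane protein used as a marker of reactive glia, stood at 0.41, 0.26, 0.34, 0.90 and 0.35 in ewes and from -0.20 to 0.28 with a median of -0.038 in rams. Only ram replicate 3 fell among the ewes, and the difference was 0.51 ± 0.16 (adjusted p = 0.0732). CHI3L1, a chitinase-like protein that reactive astrocytes secrete, had a difference of 1.07 ± 0.33 (adjusted p = 0.0650), with ram replicate 6 among the ewes and the other rams below them. Of 11 microglia and macrophage genes tested 7 had positive differences, none was called, and the median was 0.39. Members differed: ITGB2, an integrin chain of leukocytes, stood at 0.64 ± 0.27 (adjusted p = 0.157), TYROBP, the adaptor partner of FCER1G in microglia, at -0.14 ± 0.11 (adjusted p = 0.489), and ITGAM, another integrin chain, at -1.02 ± 0.64 (adjusted p = 0.355). The mean of the list in each array ranged from -0.27 to 0.23 in ewes and -0.47 to 0.0007 in rams.

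Interferon-induced genes had the highest median of the lists with at least 3 tested genes, 0.65, with 7 of 8 positive and none called. Its median was 0.46 in the untreated left and 0.77 in the treated right amygdala. ISG15, a ubiquitin-like protein, stood at -0.26, 0.76, 1.99, 1.58 and 0.25 in ewes and from -1.34 to 0.13 with a median of -0.77 in rams. Ewe replicate 3 fell among the rams and ewe replicates 5 and 6 were highest. The difference was 1.40 ± 0.52 (adjusted p = 0.111). IRF1, a transcription factor of the interferon response, had a difference of 1.33 ± 0.65 (adjusted p = 0.216), and MX1, an antiviral GTPase, one of 0.26 ± 0.36 (adjusted p = 0.692). B2M, the light chain of MHC class I, had one of 0.86 ± 0.30 (adjusted p = 0.0947).

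Among 27 cytokines and chemokines none was called, and 11 differences were positive and 16 negative. MIF, an abundant cytokine, stood at 0.59, 0.92, 0.60, 0.93 and 1.07 in ewes and from 0.10 to 0.80 with a median of 0.28 in rams. Ram replicate 2 fell among the ewes, and the difference was 0.48 ± 0.15 (adjusted p = 0.0768). TNFSF13B, a survival factor of B cells, had a difference of 1.78 ± 0.57 (adjusted p = 0.0797) with 9 of 10 values widely shared. IKBKB, a kinase that activates NF-kappa B, differed by 1.96 ± 0.60 (adjusted p = 0.0670). Its 4 Cy3 rams lay between -2.69 and -1.95, below all ewes, while the 2 Cy5 rams stood at -0.51 and 0.13, among the ewes. Among Cy3 arrays alone the difference was 2.21 (adjusted p = 0.0144), the only named gene called there. Markers of lymphocytes gave no single direction, with 4 of 8 positive. The T-cell genes CD3D and CD5 had differences of 1.28 ± 0.60 (adjusted p = 0.200) and 0.83 ± 0.44 (adjusted p = 0.252), and CD4 had one of -0.99 ± 0.60 (adjusted p = 0.329). Dimmer probes of CD3D and CD5 stood at 0.11 ± 0.53 (adjusted p = 0.927) and 1.05 ± 0.48 (adjusted p = 0.18).

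Astrocyte genes were positive in 5 of 6, with none called and a median of 0.26. AQP4, the water channel of astrocyte endfeet, stood at 0.44, 0.48, 0.33, 0.36 and 0.37 in ewes and from -0.52 to 0.33 with a median of -0.32 in rams. The ewes lay close together, ram replicate 5 reached the lowest of them, and the other rams lay below. The difference was 0.39 ± 0.17 (adjusted p = 0.160). GFAP, the astrocyte intermediate filament, differed by 0.64 ± 0.28 (adjusted p = 0.171), and VIM, another filament protein, by -0.58 ± 0.31 (adjusted p = 0.269). Both Cy5 rams were among the 3 lowest rams for AQP4 and GFAP. The mean of the list in each array ranged from -0.19 to 0.28 in ewes and -0.44 to 0.13 in rams, and its part in other differences was not tested. Since the pool is itself amygdala RNA, a ratio does not show the level of a cell type's markers. By the authors' deposited log2 brightness AQP4 stood at 9.74 and GFAP at 6.82, against a median of 5.95 over the probes tested. The myelin and neuron lists had no tested gene, so these cell types were not analysed here.

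Of the genes of glutamate neurotransmission 9 of 12 were positive, with none called and a median of 0.20. GRM3, a metabotropic glutamate receptor, differed by 1.03 ± 0.38 (adjusted p = 0.111), and SLC1A1, a neuronal glutamate transporter, by -0.69 ± 0.42 (adjusted p = 0.323). Of 23 genes of amine, oxytocin and neuropeptide signalling 13 were positive and none was called by its brightest probe, and the median was 0.11. OXT, which encodes oxytocin, a neuropeptide of social bonding and maternal care, stood at -0.56, -0.15, -0.51, -0.50 and -0.77 in ewes and from -0.085 to 0.29 with a median of 0.10 in rams on that probe. All ewes lay below all rams, and the difference was -0.64 ± 0.23 (adjusted p = 0.102). On its slightly dimmer probe ewes stood at -0.76, -0.34, -0.41, -0.51 and -0.43 and rams ranged from -0.054 to 0.35 with a median of 0.23. Again the groups did not overlap, and this difference passed the threshold at -0.69 ± 0.16 (adjusted p = 0.0319). OXTR, the oxytocin receptor, had a difference of 0.84 ± 0.64 (adjusted p = 0.440). POMC, the precursor of melanocortins and beta-endorphin, had one of -0.61 ± 0.24 (adjusted p = 0.133), and a dimmer POMC probe one of -0.23 ± 0.24 (adjusted p = 0.593).

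5 other genes had a called probe that was not their brightest and, like that of OXT, are named here after their values were seen. These were PLIN1, a coat protein of lipid droplets, at -0.84 ± 0.21 (adjusted p = 0.0323), the polyubiquitin gene UBB at -0.50 ± 0.12 (adjusted p = 0.0323), the receptor TLR3 for double-stranded RNA at 2.01 ± 0.50 (adjusted p = 0.0344), the potassium channel KCNK3 at 1.93 ± 0.50 (adjusted p = 0.0390) and the hypoxia-inducible factor EPAS1 at 1.76 ± 0.46 (adjusted p = 0.0391). On their brightest probes PLIN1 stood at -0.54 ± 0.21 (adjusted p = 0.124) and UBB at 0.15 ± 0.15 (adjusted p = 0.560). The probes of UBB, both bright, thus gave opposite signs. The brightest probe of TLR3 stood at 0.16 ± 0.40 (adjusted p = 0.837), that of KCNK3 at 0.11 ± 0.43 (adjusted p = 0.906) and that of EPAS1 at 0.39 ± 0.59 (adjusted p = 0.722), and another EPAS1 probe at -0.85 ± 0.47 (adjusted p = 0.279), so these probes disagree with the called ones. On the called probes 6 values of TLR3, 11 of KCNK3 and 7 of EPAS1 were widely shared. TLR3, KCNK3 and EPAS1 overlapped between the sexes.

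**Figure D3:**
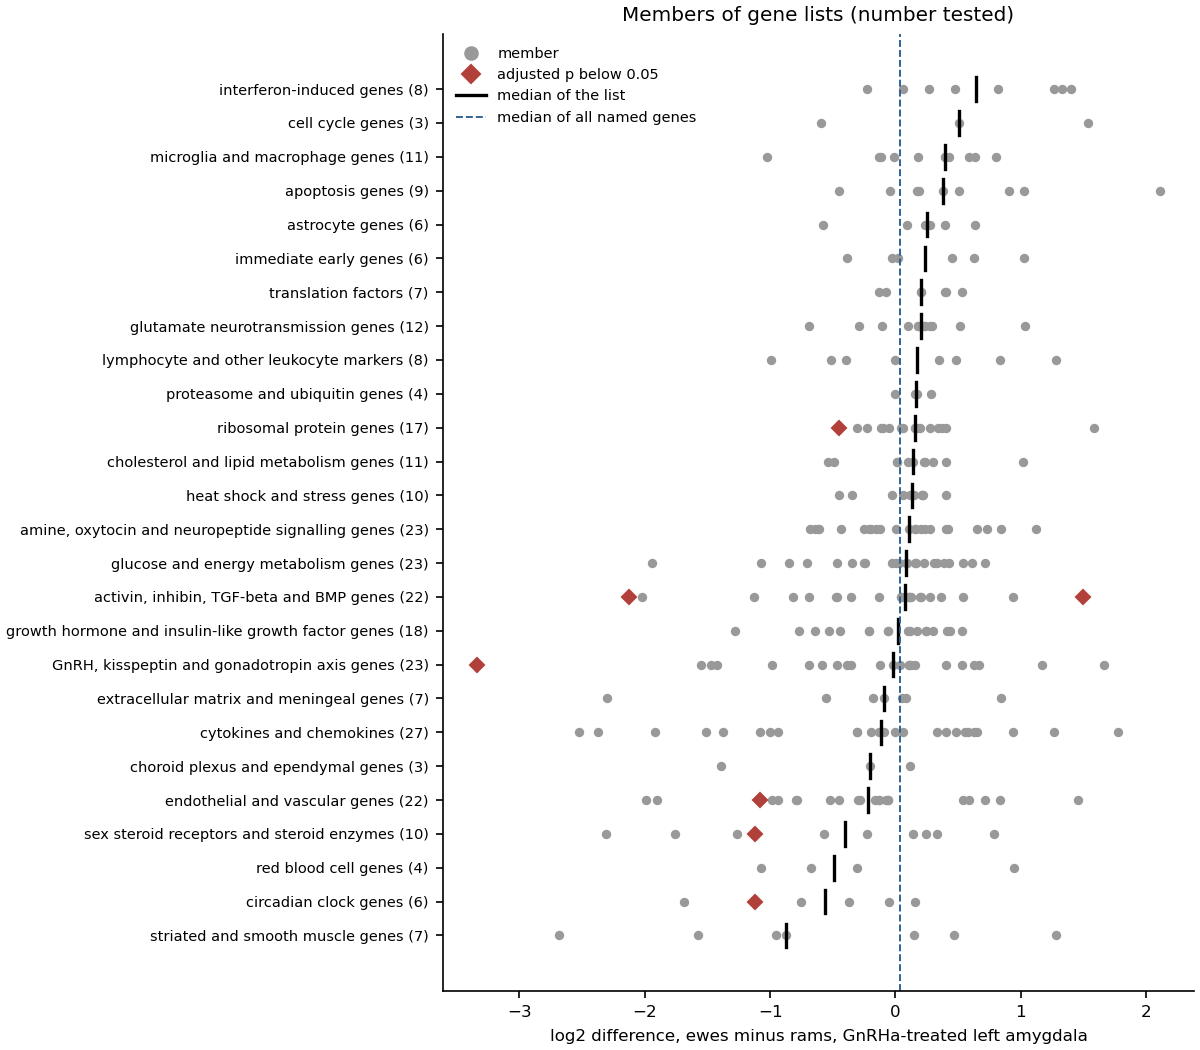
Log2 differences, ewes minus rams (horizontal axis), of the tested members of the 26 lists with at least 3 of them. Points are members, diamonds are called genes, black bars are list medians and the dashed line is the median of all named genes. Medians run from -0.87 for muscle genes to 0.65 for interferon-induced genes, and members of most lists lie on both sides of 0.

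No gene of cell growth, cell death or metabolism was called by its brightest probe, while a dimmer probe of PLIN1 was, as given above. List medians were 0.082 for 23 genes of glucose and energy metabolism, 0.14 for 11 of cholesterol and lipid metabolism, 0.022 for 18 of growth hormone and insulin-like growth factors and 0.38 for 9 of apoptosis. PYGL, a glycogen phosphorylase, stood at -0.63, -0.62, -0.38, -0.73 and -0.062 in ewes and from -0.33 to 0.65 with a median of 0.10 in rams, with a difference of -0.70 ± 0.21 (adjusted p = 0.0622). Ewe replicate 7 fell among the rams. PCNA, the sliding clamp of DNA replication, differed by -0.59 ± 0.18 (adjusted p = 0.0639), and a dimmer PCNA probe by -0.25 ± 0.24 (adjusted p = 0.560). CFL1, an actin-severing protein, stood at 0.60, 1.64, 0.60, 1.89 and 1.87 in ewes and from 0.10 to 0.63 with a median of 0.22 in rams. Ewe replicates 3 and 5 lay just below the highest ram, replicate 3, and the other 3 ewes far above, and the difference was 0.98 ± 0.31 (adjusted p = 0.0697). BAK1 and BAD, which promote apoptosis at mitochondria, differed by 2.11 ± 0.62 (adjusted p = 0.0605) and 0.38 ± 0.14 (adjusted p = 0.109), with 9 of 11 BAK1 values widely shared. A dimmer BAK1 probe stood at -0.88 ± 0.67 (adjusted p = 0.443), in the other direction. MTHFD2, a mitochondrial folate enzyme, differed by -1.95 ± 0.59 (adjusted p = 0.0670) on a stepped probe, and a dimmer probe stood at 1.15 ± 0.61 (adjusted p = 0.259). TM7SF2, a sterol reductase, differed by 0.41 ± 0.16 (adjusted p = 0.122), IGFBP6, which binds insulin-like growth factor II, by 0.53 ± 0.24 (adjusted p = 0.180) and IGFBP3, the main carrier of these factors in blood, by 0.43 ± 0.24 (adjusted p = 0.275).

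Immediate early and stress genes were not called either, with medians of 0.23 over 6 and 0.14 over 10 genes. The 6 immediate early genes ran from -0.39 to 1.03, with 4 positive and 2 negative. All ewes lay below all rams for 1 of them and above for 1, against 2.92% and 2.19% of all named genes. JUND, a member of the AP-1 family of transcription factors, stood at 0.53, 0.89, 0.38, 0.78 and 0.71 in ewes and from -0.52 to 0.36 with a median of -0.037 in rams, without overlap, at a difference of 0.62 ± 0.23 (adjusted p = 0.108). FOS, its partner, which neurons induce upon activity, differed by 1.03 ± 0.42 (adjusted p = 0.142), and a second FOS probe by 0.56 ± 0.40 (adjusted p = 0.412). HSPA1A, an inducible heat shock protein, differed by 0.40 ± 0.29 (adjusted p = 0.418) and TXN, the thioredoxin gene, by -0.34 ± 0.16 (adjusted p = 0.186). The proteasome subunit PSMD4 stood at 0.29 ± 0.11 (adjusted p = 0.136) and the ubiquitin-conjugating enzyme UBE2D2 at 0.17 ± 0.10 (adjusted p = 0.294).

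Genes of tissues next to the amygdala varied within each sex. TTR, which the choroid plexus makes in quantity, ranged from -4.34 to -1.97 in ewes and -3.69 to 0.55 in rams, and its difference was -1.39 ± 0.99 (adjusted p = 0.405). AQP1, another gene of that plexus, differed by -0.21 ± 0.84 (adjusted p = 0.906). COL3A1, a collagen of meninges and vessels, stood at -2.30 ± 0.63 (adjusted p = 0.0543), with 7 of 9 values widely shared, and COL6A1 at 0.84 ± 0.62 (adjusted p = 0.423). The red cell genes AHSP and EPOR stood at -1.07 ± 0.62 (adjusted p = 0.305) and 0.95 ± 0.56 (adjusted p = 0.315), and the muscle genes MYOG and TNNC2 at -2.69 ± 0.89 (adjusted p = 0.104) and -0.95 ± 0.36 (adjusted p = 0.118). A dimmer AHSP probe stood at 0.40 ± 0.60 (adjusted p = 0.723), in the other direction. None of the 7 extracellular matrix, 4 red cell, 3 choroid plexus or 7 muscle genes tested was called. Per array the mean of the choroid plexus list ranged from -1.81 to -0.53 in ewes and -1.97 to 0.34 in rams, and that of the red cell list from -0.55 to 0.37 and -0.67 to 1.08. The part of these tissues in the differences above was not tested.

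In the left amygdala of untreated animals limma called 661 probes between ewes and rams (5.11%). The treated and untreated sets share no array, and 10 probes were called in both, 3.53% of the 283 and 1.51% of the 661. Of the 10 named genes called in treated animals 5 had the same sign there. RPL6 was also called in untreated animals, at -0.46 ± 0.12 (adjusted p = 0.0236). CRY1 stood at -0.66 ± 0.27 (adjusted p = 0.136), NRP1 at -0.65 ± 0.26 (adjusted p = 0.123) and HSD11B1 at -0.51 ± 0.28 (adjusted p = 0.290). TSPO and MIF, not called in treated animals, were called in untreated ones at 0.63 ± 0.17 (adjusted p = 0.0238) and 0.58 ± 0.16 (adjusted p = 0.0284).

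The difference between the 2 sex differences was tested as an interaction. For 3 of 12930 probes (0.0232%) and for 0 of 685 named genes it passed the threshold in limma, although 14% of the probes had an unadjusted p below 0.05. For CRY1 it was -0.46 ± 0.37 (adjusted p = 0.6), for NRP1 -0.43 ± 0.35 (adjusted p = 0.607), for HSD11B1 -0.61 ± 0.39 (adjusted p = 0.483) and for RPL6 0.0032 ± 0.17 (adjusted p = 0.996). GNRHR had one of -4.09 ± 1.16 (adjusted p = 0.164) and CTSS one of 0.84 ± 0.34 (adjusted p = 0.259). A sex difference particular to treated animals was thus not detected in any named gene, which does not show that treated and untreated animals were alike.

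The right amygdala of the treated animals gave 4 called probes (0.0309%). Of the 10 genes called on the left 5 had the same sign on the right. CRY1 stood at -0.0026 ± 0.26 (adjusted p = 0.998) there, HSD11B1 at -0.12 ± 0.28 (adjusted p = 0.905), NRP1 at -0.44 ± 0.25 (adjusted p = 0.514) and RPL6 at 0.18 ± 0.12 (adjusted p = 0.584). CTSS stood at 1.15 ± 0.24 (adjusted p = 0.0641) on the right, and its left difference minus the right one was -0.36 ± 0.33 (adjusted p = 0.505).

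The sex difference on the left minus that on the right passed for 666 probes (5.15%) and 22 named genes (3.21%). All 5 right ewe arrays were Cy5 and all 5 left ones Cy3, so in ewes the side and the dye go together. Only the dye term, which rests on arrays of rams, parts them. With ram replicate 1 of the untreated left amygdala taken as Cy3 instead of its labelled Cy5, 501 probes passed here and 205 in the main comparison. By the correlation above this array stood at 0.089, within the range of the Cy5 arrays. The term was positive for MIF at 0.97 ± 0.21 (adjusted p = 0.0162), TGFBR1 at 2.39 ± 0.53 (adjusted p = 0.0170), TSPO at 0.78 ± 0.22 (adjusted p = 0.0377) and CFL1 at 1.51 ± 0.42 (adjusted p = 0.0367). It was negative for RPL6 at -0.63 ± 0.16 (adjusted p = 0.0251) and PPIA at -0.64 ± 0.20 (adjusted p = 0.0472). CRY1 had one of -1.12 ± 0.36 (adjusted p = 0.0595).

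**Figure D4:**
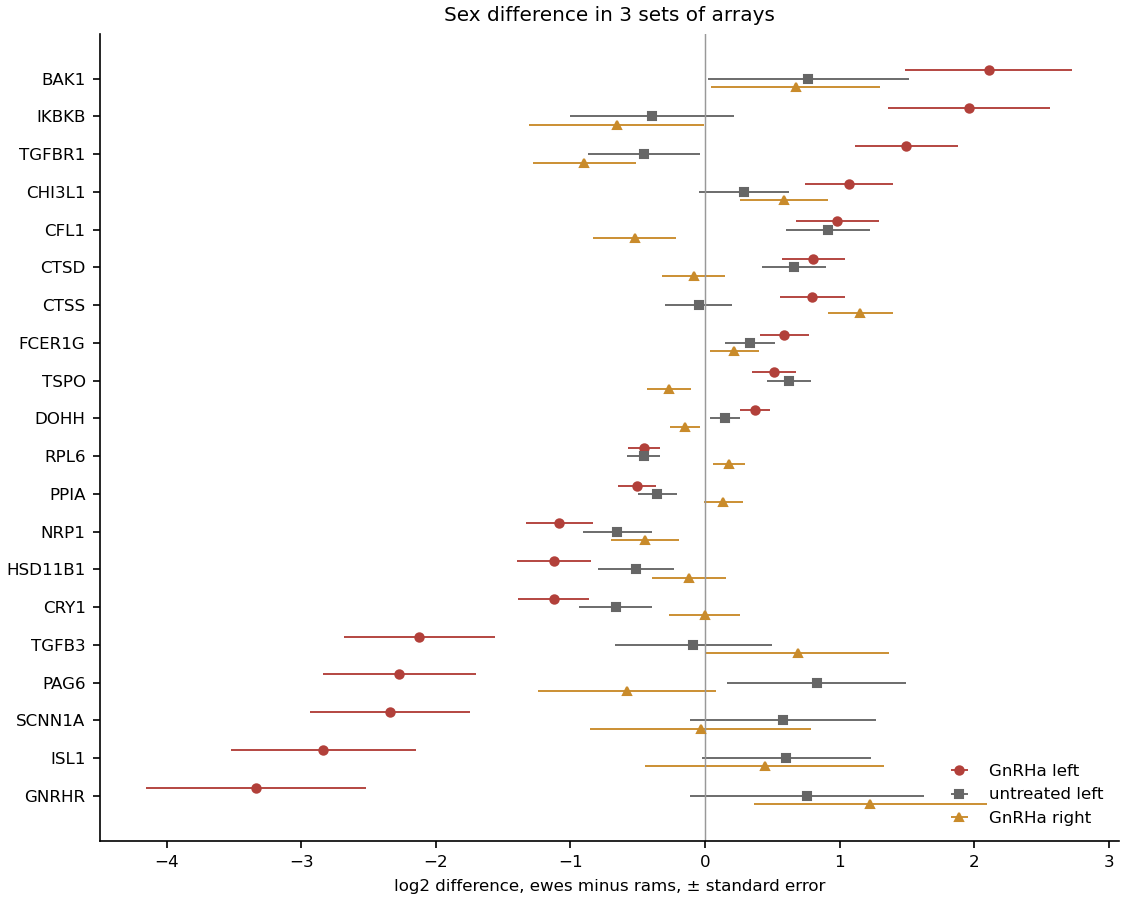
Log2 difference, ewes minus rams, ± standard error (horizontal axis), of the 20 genes named for a low p in the left amygdala of treated animals. Circles are that comparison, which chose the genes, squares are the untreated left amygdala and triangles the right amygdala of treated animals. RPL6 lies at -0.45 and -0.46 in the left comparisons and at 0.18 on the right.

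How many probes passed depended on each array. Without ewe replicate 3, 4, 5, 6 or 7 the count of 283 became 198, 59, 588, 15 and 26, in that order. Without ram replicate 1, 2, 3, 5, 6 or 7 it became 100, 175, 555, 129, 30 and 60. Among the Cy3 arrays of both groups 8 of 13599 probes were called (0.0588%), while 20.2% had an unadjusted p below 0.05. With only the 6862 probes without a widely shared value, a choice made after seeing the data, 435 probes and 20 of 324 named genes were called, 10 higher and 10 lower in ewes. CRY1, NRP1, HSD11B1 and RPL6 were among the lower ones, and CTSS (adjusted p = 0.0396), CTSD (0.0375), FCER1G (0.0401) and TSPO (0.0494) among the higher ones in limma.

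**Figure D5:**
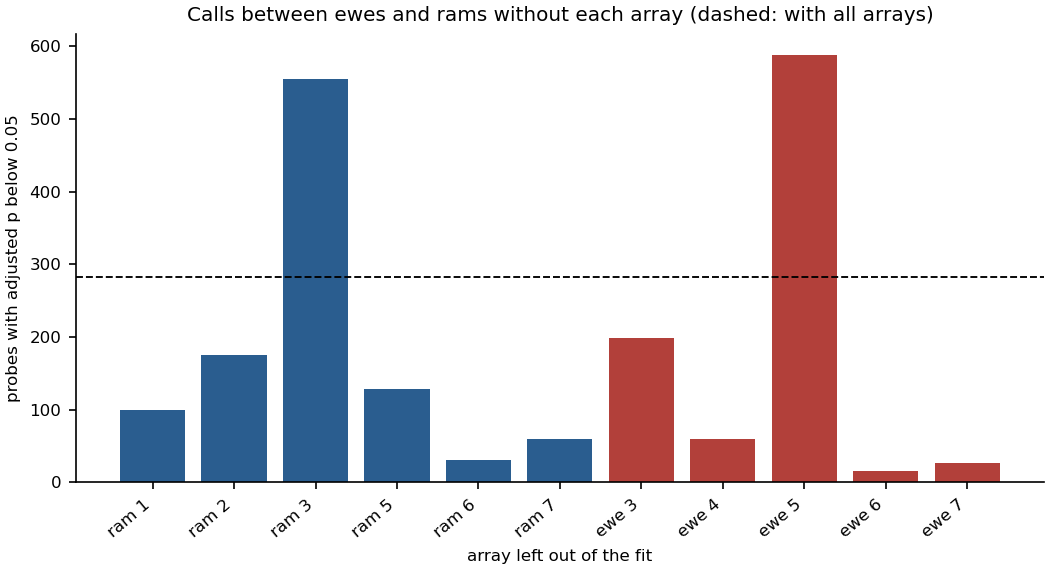
Number of probes called between ewes and rams (vertical axis, from 0) in each fit that left out 1 of the 11 arrays (horizontal axis, by sex and replicate). The dashed line is the 283 probes called with all of them. Counts run from 15 without ewe replicate 6 to 588 without ewe replicate 5.

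The authors' deposited table for treated left ewes against the pool holds 875 spots with an adjusted p below 0.05, and that for rams holds 0. For each gene below, the fold change is the mean over the spots of its probe, while the adjusted p is the lowest among those spots. The p is therefore that of the best spot and does not belong to the mean. Read in this way, the ewe table gave CRY1 at -0.66 (adjusted p = 0.000184), HSD11B1 at -0.30 (adjusted p = 0.0326), RPL6 at -0.34 (adjusted p = 0.0244), PPIA at -0.43 (adjusted p = 0.000589) and CTSD at 0.39 (adjusted p = 0.0428). In the authors' deposited table of rams these genes stood at -0.09, -0.018, -0.02, 0.00017 and -0.16. GNRHR stood at 0.0043 (adjusted p = 0.993) and TGFBR1 at 0.022 (adjusted p = 0.872) in the authors' deposited table of ewes. These tables set each sex against the pool and do not test ewes against rams. Their arrays may differ from those chosen here by the spike-in RNAs, which was not tested.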

How the data were processed

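RNA of single amygdalae was hybridized with pooled amygdala RNA on 2-colour Agilent arrays and read with Agilent Feature Extraction 9.1, per the submitters' processing notes. The deposited log2 ratios, read as sample to pool, come in 56 columns, of which each maps to 1 sample. Background correction, normalization and direction are not given in the sources used here. The authors' deposited tables per group hold a log2 fold change, a mean log2 brightness, a moderated t score and p-values, raw and adjusted.

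For each column the mean ratios of 10 spike-in probes, median-centred, were regressed on the median of the other columns. Columns with a slope under 0.5 in size were left out (15, slopes up to 0.208), 41 were kept (1.13 to 1.26 in size) and 3 with negative slopes were multiplied by -1, their dye taken as the opposite of the label. On the 11 arrays compared 2.49 to 15.5% of the spots had no value, and array medians lay between -0.022 and 0.019. Control spots were dropped and spots averaged to 15008 probes. 1335 probes name 759 autosomal genes through the reference assembly ARS-UI_Ramb_v3.0 (accession, gene number, symbol, synonym or old name).

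limma 3.58.1 in R 4.3.3 fitted the 8 group means and the dye to all 41 arrays, with animal as a random block (correlation 0.147), for probes with at least 2 values in every group, two-sided. The members, the 32 gene lists and the rule for naming genes were chosen with earlier results of these data known. The rule takes every called gene, the genes of lowest p up to 10 in each direction, the 2 of lowest p in each list with at least 3 tested, and fixed receptor and hormone genes. BMAL1, PER2, SLC2A1, GNRH1, TGFB1, ITGB2, TYROBP, ITGAM, MX1, B2M, CD4, VIM and RPS27A lie outside it and were named as list members after their values were seen. KISS1 and CRH had no tested probe by name, and some genes that the rule takes are not reported here. Of the alternatives, 5 were chosen after seeing the data: only Cy3 arrays (of all left groups, or of the 2 groups), 1 control array taken as Cy3, a brightness of at least 6, and no widely shared values. The fit without the animal block was run on simulated data with independent normal noise, so the block and the stepped values were not tested. Tables were made with pandas 2.3.3.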

Additional observations from a re-analysis of the deposited data

Results flagged for a closer look

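In groups of 4 to 10 arrays a single array stood far from the others in 9 of 128 groups looked at among the genes that the naming rule takes, and chance flags about 1 in 20 groups. In ewes these were TSPO at 0.90 in replicate 6, COL3A1 at -2.30 and MTHFD2 at -2.17 in replicate 3, FOS at 1.28 in replicate 7 and CYP19 at -2.29 in replicate 5. In rams they were TNFSF13B at -0.24 in replicate 2, PSMD4 at 0.27 and FSHR at -2.01 in replicate 3, and UBE2D2 at 0.25 in replicate 1. The COL3A1, MTHFD2 and CYP19 probes are stepped.

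Of the 22 named genes that passed, the naming rule takes 11 for which the sex difference on the left differed from that on the right in treated animals, by limma's interaction term. It was 2.39 for TGFBR1, 1.75 for GRM3, 1.51 for CFL1, 0.97 for MIF, 0.78 for TSPO, 0.69 for BAD and 0.52 for DOHH. It was -0.63 for RPL6, -0.64 for PPIA, -3.64 for ITGA5 and -4.56 for GNRHR. In ewes side and dye go together in this term.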

How the results depend on the processing

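Counts of called probes are given for the treated left amygdala unless another comparison is named, against 283 in the fit reported above. With all 56 columns as labelled 8 were called, with the arrays of both groups only 6, with the left arrays only 22, with the turned arrays' dye as labelled 66, without the turned arrays 12, with arrays centred and scaled 434 and with array weights 1897. Among Cy3 arrays 9 (all left groups) or 8 (both groups) were called, and without widely shared values 435. With leave-one-out fits the count was 15 to 588.

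Named genes called, 10 in the reported fit, became 1 with all columns, both groups only, the left arrays only, or the dye as labelled, and 1 with Cy3 arrays of both groups. With all columns, both groups only or Cy3 arrays the 1 gene was not among the 10, and it was IKBKB with Cy3 arrays. They became 0 without the turned arrays or among Cy3 arrays of the left, 18 with scaled arrays, 87 with weights, 19 at a brightness of at least 6, 20 without shared values, 7 by probes measured on every array and 7 by the mean over probes. ISL1 turned to 0.51 by the mean over probes (adjusted p = 0.715). Leave-one-out fits gave 0 to 23.

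The interaction with untreated animals, 3 in the reported fit, gave 0 with all columns, the dye as labelled, no turned arrays or only Cy3, and 10 (left arrays), 6 (no animal block, or 1 control array as Cy3), 7 (twin pair block, or weights) and 5 (scaled). Leave-one-out fits gave 1 to 17. The interaction with the right side, 666 in the reported fit, gave 0 with all columns, 144 (dye as labelled), 65 (no turned arrays), 152 (no animal block), 338 (twin pair block), 1755 (weights), 1051 (brightness) and 1029 (no shared values), and 228 to 1221 leave-one-out. Untreated left, 661 in the reported fit, gave 5 with all columns, 268 (left arrays), 218 (scaled) and 308 (quantile). The treated right side, 4 in the reported fit, gave 0 with all columns, 7 without a dye term, 9 with values required in both groups only, 22 (every array), 34 (scaled), 33 (quantile), 27 (weights), 16 (brightness) and 23 (no shared values), and 4 to 7 leave-one-out. The causes were not tested, other than fewer arrays or probes where the setting itself removes them.

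Over the single genes named, 1687 alternative values kept direction and side of the threshold, 162 lost the call, 94 gained one, 17 changed sign without a call in the reported fit and 1 called value, that of ISL1, reversed. These 18 sign changes fell in 11 genes, 9 with all 56 columns and 6 in CYP19, and AQP1 changed to 0.32 without ram replicate 5. No paired analysis was possible because the labels' numbers mark no pairs of ewes with rams. Dim probes limit what can be resolved: 111 of the 283 called probes held a widely shared value.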
